A study of Mus musculus with 6 samples.

Results

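BMP and TGF-beta signaling genes were followed in smooth muscle cells of mouse pulmonary arteries (mPASMCs) after knockdown of the long noncoding RNA *Snhg18*. The 54 genes were chosen by name, and they comprise the ligands, receptors, SMAD proteins, secreted antagonists and ID targets of a pathway whose mutations underlie most inherited pulmonary arterial hypertension. All 54 were found by symbol among the 55487 genes of the count table. Of these, 51 had enough reads to be tested, among 14531 genes tested in all, and *Bmp7*, *Gdf5* and *Nog* did not.

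RNA was sequenced from mPASMCs, cells bought from a supplier and grown in medium with serum, which had been transfected with a negative control siRNA (si-NC, labelled as control) or with an siRNA against *Snhg18* (si-Snhg18, labelled as *Snhg18* knockdown). There were 3 libraries in each group, numbered 1 to 3 in the labels, and both groups went through transfection. The sources used here state neither the oxygen level of the sequenced cells nor when they were harvested, and the knockdown rests on 1 siRNA. Nothing states that the 3 libraries came from separate cultures, so the p-values measure only the spread between these samples, which may be technical.

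A ligand of this family binds a complex of type II and type I receptors, and the type II receptor then switches on the type I receptor. The activated type I receptor phosphorylates SMAD proteins, which are SMAD1, SMAD5 and SMAD9 for BMP ligands and SMAD2 and SMAD3 for TGF-beta and activin ligands, and these enter the nucleus with SMAD4. In pulmonary arteries the BMP branch is known for its type II receptor BMPR2, mutations of which cause inherited pulmonary arterial hypertension, while the TGF-beta branch is known for driving matrix production and contractile genes in smooth muscle cells.

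The totals lay between 18097718 (si-Snhg18 3) and 25988746 (si-Snhg18 1) counted reads, and 3 reads, used as a floor for detection, equalled 0.115 to 0.166 CPM (counts scaled to a common library total). *Snhg18* itself was at 23.5, 22.4 and 22.1 CPM in si-NC 1 to 3 and at 10.6, 11.1 and 9.96 CPM in si-Snhg18 1 to 3, a log2 fold change of -1.10 (standard error 0.10, edgeR adjusted p = 0.00727). Smooth muscle markers were present in every library. *Acta2* was at 812 to 939 CPM in si-NC and 574 to 1040.5 CPM in si-Snhg18 libraries, and *Tagln* at 679 to 692 and 435 to 561 CPM. *Myh11*, a marker of mature contractile cells, was at only 16.4 to 22.3 and 8.27 to 18.7 CPM. The summed level of the 10 smooth muscle markers was 1765 to 1915 CPM in si-NC and 1216 to 1873 CPM in si-Snhg18 libraries, that of the 8 fibroblast markers, mostly *Col1a1*, 2284 to 2982 and 1415 to 2228 CPM, and that of the 6 pericyte markers 428 to 538 and 316 to 483 CPM. The 12 endothelial markers summed to 14.97 to 17.2 CPM in si-NC and 15.6 to 19.1 CPM in si-Snhg18 libraries, with *Cldn5* at 0 reads in all of them. The 10 leukocyte markers summed to 20.2 to 43.1 and 24.4 to 63.7 CPM, with *Adgre1*, *Cd3e* and *Tyrobp* at 0 reads, and most of this was *Cd14*, which was higher with the replicate block described below (log2 fold change 0.57, edgeR adjusted p = 0.00369). The 6 epithelial markers summed to 7.24 to 22.7 and 1.19 to 7.41 CPM, with *Sftpc* and *Nkx2-1* at 0 reads, and most of this was *Krt18*, which was lower with the block (log2 fold change -1.94, edgeR adjusted p = 0.00216). Without the block, *Tagln* and the pericyte marker *Notch3* were lower (log2 fold change -0.51 and -0.89, edgeR adjusted p = 0.0427 and 0.0333). With it, 4 smooth muscle, 2 fibroblast and 3 pericyte markers were lower and 0 higher, where 13.6% of all tested genes were lower. The endothelial marker *Tek*, at 4 to 32 reads in a library, was lower with the block as well (log2 fold change -1.47, edgeR adjusted p = 0.0341). In bulk samples such as these, fewer cells of a type and less RNA per cell cannot be told apart, and the part of these shifts in the results below was not tested.

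Knockdown of *Snhg18* was accompanied by higher levels of activin receptors and of the ubiquitin ligase gene *Smurf2*, and by lower levels of the activin ligand gene *Inhba* and of the BMP modulator gene *Twsg1*. In edgeR's quasi-likelihood test, with p-values adjusted over all 14531 genes, 8 of the 51 tested members passed an adjusted p of 0.05. The 5 that rose were *Bmp1*, *Acvr1b*, *Acvr2a*, *Acvr2b* and *Smurf2*, which is 9.80% of the members, where 3.65% of all tested genes rose. The 3 that fell were *Inhba*, *Tgfbr3* and *Twsg1*, which is 5.88%, where 3.71% of all tested genes fell. With library totals in place of TMM factors 7 members rose and 2 fell, and 1105 of all tested genes passed, not split by direction here. By at least 1.5-fold, *Acvr2a*, *Acvr2b* and *Smurf2* rose, where 1.72% of all tested genes did, and *Twsg1* fell, where 1.95% did.

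The libraries numbered 2 stood apart from the others in both groups, also in these genes. The library numbered 2 was the lowest of its group in both groups for 17 members, where it was for 29.8% of all tested genes. It was the highest in both groups for 23 members, where it was for 32.2% of all tested genes. Either of these held for 78.4% of the tested members and for 62.0% of all tested genes. A fit with the repeat number as a further term, called the replicate block below, compares libraries of the same number. With the block, 27 members passed, 15 of them higher (29.4%, where 13.6% of all tested genes were higher) and 12 lower (23.5%, where 13.6% of all were lower), and the 8 members named above were among them. Without the block but with both libraries numbered 2 left out, an alternative chosen after seeing the data that leaves 2 libraries in each group, 15 members were higher and 10 lower, and 23 of the 27 were among them. In that fit 4020 of all 14587 genes tested passed. The median standard error of the members' log2 fold changes was 0.17 without and 0.08 with the block, and over all tested genes 0.17 and 0.11.

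In 13 members all si-Snhg18 libraries lay above all si-NC libraries, where 15.3% of all tested genes did, and in 7 they lay below, where 15.5% did. Between same-numbered libraries, 21 members were higher in 3 of 3 pairs (41.2%, against 29.6% of all tested genes) and 19 were lower in 3 of 3 pairs (37.3%, against 30.0%). The median log2 fold change of the 51 members was 0.11 and their median absolute log2 fold change 0.35, against 0.01 and 0.25 over all tested genes. The number of calls without the block, of members as of all tested genes, changed with the library that was left out. No member passed when si-NC 1, si-NC 3 or si-Snhg18 3 was left out, with 17, 18 and 16 members at an unadjusted p under 0.05 in edgeR's test. Without si-NC 2 or si-Snhg18 1, 3 members passed, and 20 passed without si-Snhg18 2. Over all tested genes, 0 passed without si-NC 1, si-NC 3 or si-Snhg18 3. Without si-NC 2 it was 158, without si-Snhg18 1 it was 319 and without si-Snhg18 2 it was 3282.

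**Figure D1:**
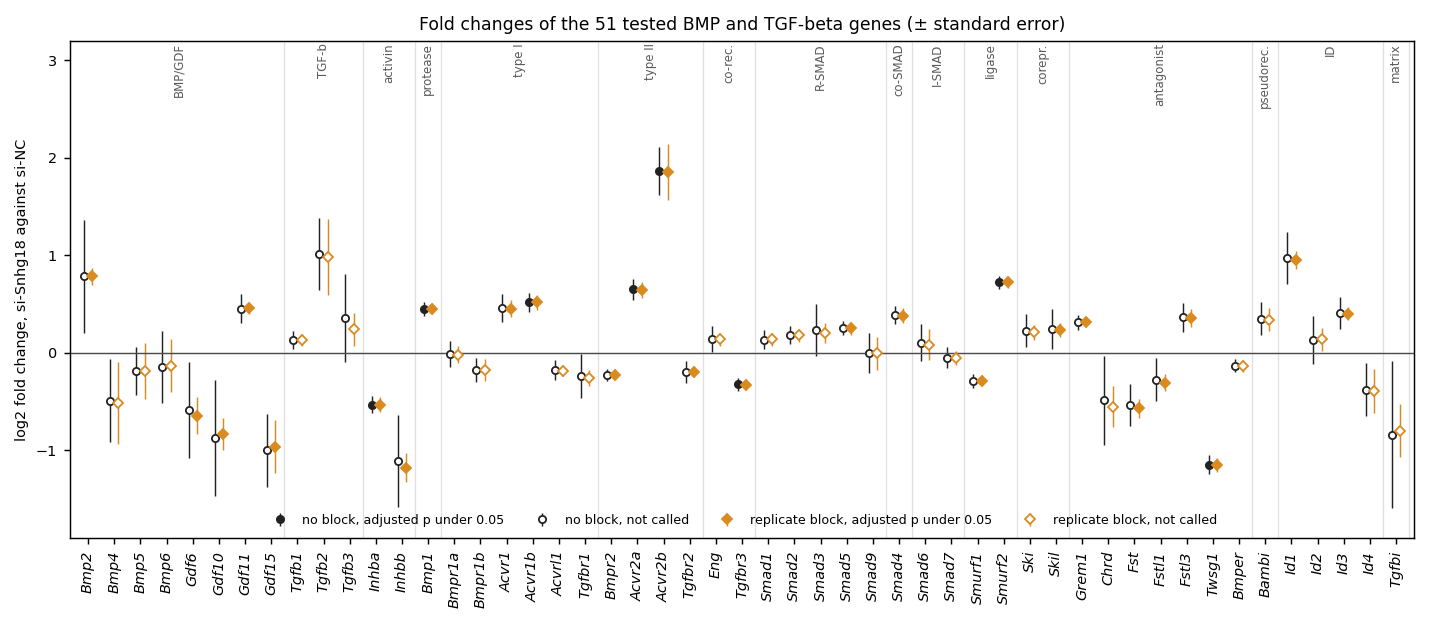
Log2 fold change (y axis, si-Snhg18 against si-NC, ± standard error, n = 3 libraries in each group) of the 51 tested members, grouped by role along the x axis. Black circles are the fit without and orange diamonds the fit with the replicate block, filled where the edgeR adjusted p is under 0.05. Acvr2b is the highest point at 1.86 and Twsg1 the lowest called without the block at -1.15, and the estimates of both fits lie close together while the bars of Bmp2, Gdf10 and Inhbb are much shorter with the block.

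The 4 members called with at least a 1.5-fold change are shown with the 250 bases before the start site annotated by RefSeq, so that their promoters can be set side by side. The stretch ends just before the start of the gene in the count table for *Acvr2a* and *Smurf2*, and it runs 60 bases into the counted gene for *Acvr2b* and 39 for *Twsg1*, whose starts differ between the annotations. The sequences are those of RefSeq on GRCm38.p6, 5′ to 3′ in the direction of the gene, and capitals mark GTCTG or its reverse complement CAGAC, the core of the element bound by SMAD3 and SMAD4, and GGCGCC, a GC-rich motif bound by SMAD proteins of the BMP branch, which reads the same on both strands.
*Acvr2a* (chr2:48813859-48814108, plus strand): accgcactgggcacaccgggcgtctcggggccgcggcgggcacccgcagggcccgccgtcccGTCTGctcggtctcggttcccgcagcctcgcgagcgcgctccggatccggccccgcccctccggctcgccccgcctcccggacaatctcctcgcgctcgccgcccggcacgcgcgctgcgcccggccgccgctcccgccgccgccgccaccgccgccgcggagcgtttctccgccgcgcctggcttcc
*Acvr2b* (chr9:119401928-119402177, plus strand): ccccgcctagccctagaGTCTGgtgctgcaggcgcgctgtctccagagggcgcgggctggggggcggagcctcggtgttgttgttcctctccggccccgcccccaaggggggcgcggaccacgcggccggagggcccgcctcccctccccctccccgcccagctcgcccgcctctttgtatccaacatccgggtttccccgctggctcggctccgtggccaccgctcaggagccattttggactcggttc
*Smurf2* (chr11:106920716-106920965, minus strand): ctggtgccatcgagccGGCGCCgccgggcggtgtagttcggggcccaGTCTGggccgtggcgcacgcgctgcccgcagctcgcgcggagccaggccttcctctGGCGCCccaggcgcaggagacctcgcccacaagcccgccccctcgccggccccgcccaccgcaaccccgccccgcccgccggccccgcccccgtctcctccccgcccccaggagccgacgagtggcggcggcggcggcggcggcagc
*Twsg1* (chr17:65951188-65951437, minus strand): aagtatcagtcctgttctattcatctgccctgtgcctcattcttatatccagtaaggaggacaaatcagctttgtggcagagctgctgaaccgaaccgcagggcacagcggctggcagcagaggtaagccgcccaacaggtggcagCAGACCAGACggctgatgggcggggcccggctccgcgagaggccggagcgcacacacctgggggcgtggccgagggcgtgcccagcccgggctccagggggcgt
*Acvr2a*, *Acvr2b* and *Smurf2* each held 1 match to GTCTG or CAGAC and *Twsg1* held 2 adjacent ones, and *Smurf2* alone of the 4 held GGCGCC, at 2 places. GTCTG or CAGAC was found in 42.2% and GGCGCC in 9.59% of all 32851 promoters of the same length, so that the first is a common match. Of the members, 38 had 44 promoters in the table, and 21 of these (47.7%) held the first and 12 (27.3%) the second motif. Members without a promoter in the table were *Acvrl1*, *Bambi*, *Bmp1*, *Bmp2*, *Bmp7*, *Fst*, *Gdf5*, *Gdf6*, *Id1*, *Nog*, *Skil*, *Smad2*, *Smad4*, *Smad7*, *Tgfb3* and *Tgfbr3*. A match describes the letters and is not a shown binding site.

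To compare genes with each other, counts were divided by the exon length in the table (RPKM, which is CPM per kilobase of exon). *Grem1*, a secreted inhibitor that binds BMP ligands, had by far the highest level per length of the members, at 660.1 ± 47.7 RPKM (SD, n = 3) in si-NC and 820.1 ± 26.3 RPKM (SD, n = 3) in si-Snhg18 cells, rank 68 and rank 50 among the tested genes. *Fstl1*, a secreted glycoprotein that modulates BMP signaling, followed at 228 ± 34.8 and 188 ± 57.1 RPKM. The lowest levels per length among tested members in si-NC cells were those of *Tgfb2* (0.167 RPKM), *Acvr2b* (0.242 RPKM) and *Bmp4* (0.284 RPKM). Among the receptors, *Acvrl1* had the highest level of the type I genes and *Tgfbr2* that of the type II genes, at 35.2 ± 2.25 and 17.0 ± 1.64 RPKM in si-NC cells. The untested members had 2 to 10 reads in a library (*Bmp7*, a BMP ligand), 1 to 6 reads (*Gdf5*, a ligand of joints and cartilage) and 0 to 3 reads (*Nog*, which encodes the BMP antagonist noggin).

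**Figure D2:**
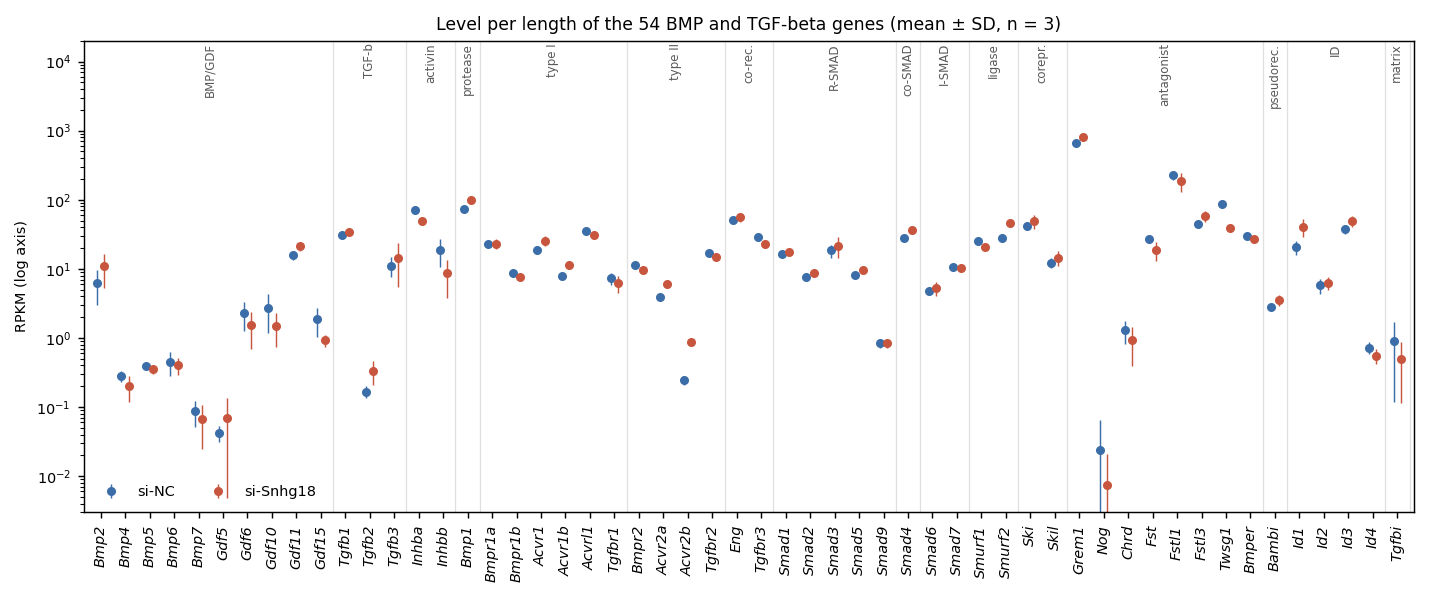
Level per length (y axis, RPKM on a log axis, mean ± SD, n = 3 libraries) of all 54 members in si-NC (blue) and si-Snhg18 (red) cells, grouped by role along the x axis, with lower bars that would reach 0 running off the axis. Grem1 and Fstl1 stand above all other members in both groups, and Nog, Gdf5 and Bmp7 lie at the bottom.

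Among the 8 tested BMP and GDF ligands, *Bmp2* and *Gdf11* were higher and *Gdf6*, *Gdf10* and *Gdf15* lower in si-Snhg18 cells with the replicate block, and none of the 5 passed without it in edgeR's test of all 6 libraries. *Bmp2*, a BMP ligand that signals through BMPR1A, was at 27.5, 9.02 and 30.5 CPM in si-NC 1 to 3 and at 50.5, 15.4 and 49.5 CPM in si-Snhg18 1 to 3. It was low in both libraries numbered 2 and the groups overlapped, but each si-Snhg18 library lay above the si-NC library of its number, by 0.88, 0.78 and 0.70 on the log2 scale. The log2 fold change was 0.78 with a standard error of 0.58 without the block (edgeR adjusted p = 0.448) and 0.08 with it (edgeR adjusted p = 0.00131). *Gdf11*, a ligand that acts through activin receptors, was at 67.0, 53.0 and 70.8 CPM in si-NC 1 to 3 and at 96.4, 72.6 and 92.5 CPM in si-Snhg18 1 to 3. Every si-Snhg18 library was higher than every si-NC library. This gave a log2 fold change of 0.45 ± 0.15 SE (edgeR adjusted p = 0.127, with the block 0.00266).

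*Gdf10*, also called BMP3B, was at 15.4, 5.59 and 21.97 CPM in si-NC 1 to 3 and at 10.8, 3.30 and 9.36 CPM in si-Snhg18 1 to 3. It was lowest in the libraries numbered 2 and lower in si-Snhg18 cells in 3 of 3 pairs. On the log2 scale the difference was -0.87 ± 0.59 SE (edgeR adjusted p = 0.409, with the block 0.0102). *Gdf6*, a BMP ligand, was at 5.56, 12.1 and 6.43 CPM in si-NC 1 to 3 and at 2.49, 8.38 and 5.20 CPM in si-Snhg18 1 to 3. Here the libraries numbered 2 were the highest, and the groups overlapped. As a log2 fold change this was -0.59 ± 0.49 SE (edgeR adjusted p = 0.501, with the block 0.0448). *Gdf15*, a distant family member induced by cell stress, was at 2.11, 3.88 and 1.74 CPM in si-NC 1 to 3 and at 1.27, 1.54 and 1.04 CPM in si-Snhg18 1 to 3. The groups did not overlap, and si-NC 2 was the highest library. In the fit the log2 fold change was -0.999 ± 0.37 SE (edgeR adjusted p = 0.163, with the block 0.0377). *Bmp4*, *Bmp5* and *Bmp6* had only 6 to 57 reads in a library and log2 fold changes between -0.49 and -0.14, which did not pass with or without the block, and 224 exon bases of *Bmp6* overlap *Txndc5* on the opposite strand, a gene with 7811 to 12048 reads.

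The genes of the TGF-beta ligands were not called in either fit. *Tgfb1*, which made up 73.5% ± 7.0 (SD, n = 3) of their summed RPKM in si-NC and 71.2% ± 13.8 (SD, n = 3) in si-Snhg18 cells, was at 67.7 ± 4.14 and 74.1 ± 7.25 CPM (SD, n = 3 each), with a log2 fold change of 0.13 (edgeR adjusted p = 0.436 without and 0.157 with the block). *Tgfb2* had 18 to 63 reads in a library and lay higher in all si-Snhg18 libraries, at a log2 fold change of 1.02 with a standard error of 0.37 (edgeR adjusted p = 0.157, with the block 0.105). *Tgfb3* was at 37.8 ± 11.9 and 48.5 ± 30.3 CPM (SD, n = 3 each), and its libraries numbered 2 were the highest of both groups.

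The activin subunit gene *Inhba* fell and, with the block, *Inhbb* was lower as well, while the activin receptor genes *Acvr1b*, *Acvr2a* and *Acvr2b* rose. *Inhba* (chr13:16011851-16031621, plus strand of GRCm38), which encodes the beta A subunit of activin A, was at 466, 403 and 479.9 CPM in si-NC 1 to 3 and at 319, 316 and 297 CPM in si-Snhg18 1 to 3. The ranges of the groups were apart, with si-Snhg18 lower, and 69.1% of the si-NC level remained. The estimated log2 fold change was -0.53 ± 0.09 SE (edgeR adjusted p = 0.0215, with the block 0.00298). *Inhbb*, which encodes the beta B subunit of activin B, was at 59.9, 119.7 and 58.6 CPM in si-NC 1 to 3 and at 18.3, 59.0 and 33.0 CPM in si-Snhg18 1 to 3. It was lower in 3 of 3 pairs, with si-NC 2 at the level of 119.7 CPM and si-Snhg18 2 close to si-NC 1 and 3, so that the groups overlapped. The fitted log2 fold change was -1.11 ± 0.47 SE (edgeR adjusted p = 0.208, with the block 0.00228). *Fst*, which encodes follistatin, a secreted protein that binds and blocks activins, was at 69.5, 86.8 and 75.7 CPM in si-NC 1 to 3 and at 40.7, 71.3 and 48.0 CPM in si-Snhg18 1 to 3. Its groups overlapped through the libraries numbered 2, and it was lower in 3 of 3 pairs. The log2 fold change was -0.54 ± 0.21 SE (edgeR adjusted p = 0.182, with the block 0.00653). *Fstl3*, a related activin-binding protein, lay the other way, at 85.0, 79.6 and 99.2 CPM in si-NC 1 to 3 and at 132, 91.7 and 115 CPM in si-Snhg18 1 to 3. The groups overlapped and 3 of 3 pairs were higher. This gave a log2 fold change of 0.36 ± 0.15 SE (edgeR adjusted p = 0.201, with the block 0.0291).

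Of the type II receptor genes, *Acvr2a* and *Acvr2b* rose, whereas *Bmpr2* and *Tgfbr2* did not pass without the block and were lower with it. *Acvr2a* (chr2:48814109-48903269, plus strand of GRCm38), a type II receptor of activins that also binds BMPs, was at 22.1, 20.9 and 22.6 CPM in si-NC 1 to 3 and at 35.3, 30.5 and 37.3 CPM in si-Snhg18 1 to 3. The groups did not overlap, at 1.57-fold. On the log2 scale the difference was 0.65 ± 0.10 SE (edgeR adjusted p = 0.0208, with the block 0.00245). Of its exon bases, 446 (7.84%) are shared with *Orc4* on the opposite strand, which had 758 to 1127 reads. *Acvr2b* (chr9:119402118-119434995, plus strand of GRCm38), the second activin type II receptor, showed the largest rise of the 5 members called without the block, and was at 0.690, 0.898 and 0.720 CPM in si-NC 1 to 3 and at 3.16, 2.54 and 2.74 CPM in si-Snhg18 1 to 3. This was 3.64-fold from a low level of 16 to 22 reads in a si-NC library, which is above the floor of 3 reads, and the groups did not overlap. As a log2 fold change this was 1.86 ± 0.25 SE (edgeR adjusted p = 0.0137, with the block 0.00432). *Bmpr2*, the BMP type II receptor mutated in most families with inherited pulmonary arterial hypertension, was at 138, 149.6 and 149 CPM in si-NC 1 to 3 and at 125, 122 and 126 CPM in si-Snhg18 1 to 3. All si-Snhg18 libraries lay below all si-NC libraries, with 85.6% of the si-NC level remaining. In the fit the log2 fold change was -0.22 ± 0.06 SE (edgeR adjusted p = 0.0865, with the block 0.0293). *Tgfbr2*, the type II receptor of TGF-beta, was at 131, 153 and 128 CPM in si-NC 1 to 3 and at 109, 135 and 116 CPM in si-Snhg18 1 to 3. The groups overlapped and 3 of 3 pairs were lower. The estimated log2 fold change was -0.19 ± 0.11 SE (edgeR adjusted p = 0.327, with the block 0.0401).

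Of the type I receptor genes, *Acvr1b* rose and *Acvr1* was higher with the block, while the other 4 did not pass in either fit. *Acvr1b* (chr15:101174067-101213684, plus strand of GRCm38), which encodes ALK4, the type I receptor of activins, was at 34.6, 38.1 and 32.3 CPM in si-NC 1 to 3 and at 46.3, 53.7 and 50.4 CPM in si-Snhg18 1 to 3. The groups did not overlap. The fitted log2 fold change was 0.52 ± 0.10 SE (edgeR adjusted p = 0.0315, with the block 0.00369). *Acvr1*, which encodes the type I receptor ALK2 used by BMPs, was at 49.8, 41.9 and 52.7 CPM in si-NC 1 to 3 and at 77.9, 56.8 and 63.9 CPM in si-Snhg18 1 to 3. Every si-Snhg18 library was higher than every si-NC library. The log2 fold change was 0.46 ± 0.14 SE (edgeR adjusted p = 0.112, with the block 0.00812). *Acvrl1*, which encodes ALK1, a receptor best known in endothelial cells and mutated in hereditary hemorrhagic telangiectasia, was at 134, 119 and 132 CPM in si-NC 1 to 3 and at 127, 98.8 and 115 CPM in si-Snhg18 1 to 3. It was lower in 3 of 3 pairs and did not pass. This gave a log2 fold change of -0.18 ± 0.11 SE (edgeR adjusted p = 0.355, with the block 0.0665). *Tgfbr1*, the type I receptor of TGF-beta, came close with the block at a log2 fold change of -0.24 (edgeR adjusted p = 0.0518), and passed without the libraries numbered 2, while *Bmpr1a* (-0.01) and *Bmpr1b* (-0.17) had adjusted p-values of 0.886 and 0.286 with the block in edgeR's test.

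Within each receptor class, the shares of several genes did not overlap between the groups. These shares depend on each other, since a larger share of 1 gene lowers those of the others in its class. Of the summed RPKM of the 4 type II receptors, *Acvr2a* and *Acvr2b* took the smallest shares, 11.95% ± 1.1 and 0.75% ± 0.07 (SD, n = 3 each) in si-NC cells and 19.3% ± 2.4 and 2.83% ± 0.41 (SD, n = 3 each) in si-Snhg18 cells. The share of *Bmpr2* was 34.9% ± 1.5 and 30.8% ± 1.3 (SD, n = 3 each), and the ranges of the groups did not overlap for any of these 3 genes. *Tgfbr2* held the highest share in both groups, 50.2% to 54.8% in si-NC and 44.4% to 51.6% in si-Snhg18 libraries, which overlap. Among the 6 type I receptors, *Acvr1* took 18.4% ± 1.3 in si-NC and 24.2% ± 1.9 in si-Snhg18 cells (SD, n = 3 each). *Acvr1b* took 7.90% ± 1.1 and 10.9% ± 1.7, and *Acvrl1* 35.0% ± 1.3 and 29.7% ± 1.5 (SD, n = 3 each). With 3 libraries in each group, an exact permutation test of 1 such share cannot give a two-sided p under 0.1.

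**Figure D3:**
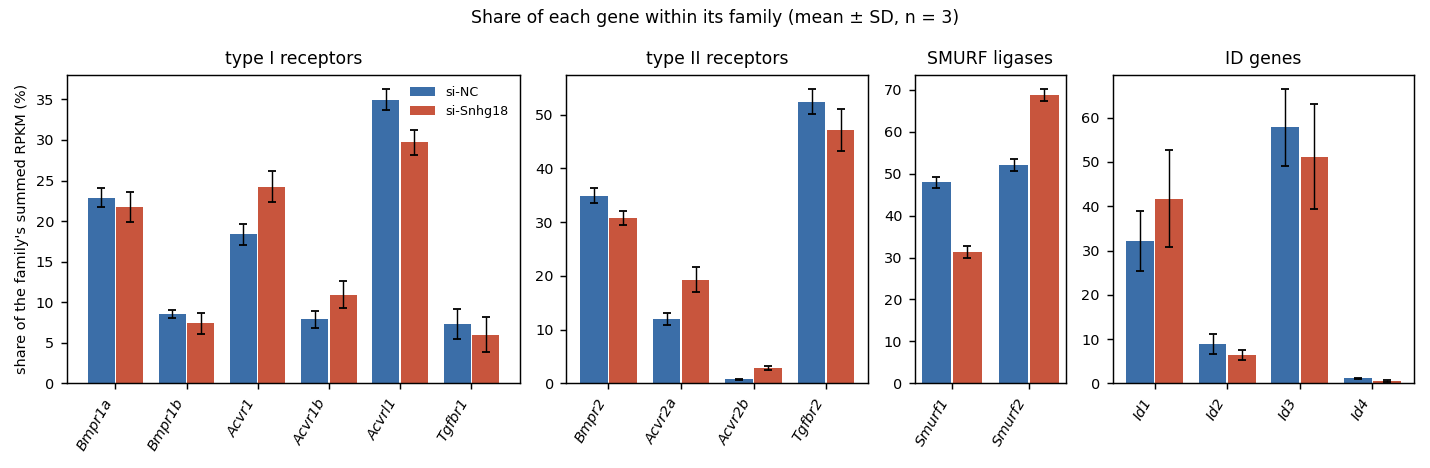
Share of each gene in the summed RPKM of its family (y axis, %, bars are means and error bars SDs over 3 libraries) in si-NC (blue) and si-Snhg18 (red) cells, for type I receptors, type II receptors, SMURF ligases and ID genes. Acvr2a, Acvr2b, Acvr1, Acvr1b and Smurf2 take larger shares in si-Snhg18 cells, with Smurf2 at 52.1% and 68.7%.

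Of the co-receptor genes, *Tgfbr3* fell and *Eng* did not pass. *Tgfbr3* (chr5:107106570-107289629, minus strand of GRCm38), which encodes betaglycan, a co-receptor that presents TGF-beta ligands and inhibins, was at 171, 178 and 176 CPM in si-NC 1 to 3 and at 131, 142 and 146 CPM in si-Snhg18 1 to 3. The ranges of the groups were apart, with si-Snhg18 lower. On the log2 scale the difference was -0.32 ± 0.07 SE (edgeR adjusted p = 0.0415, with the block 0.00653). The call was lost with library totals in place of TMM factors and without the filter on low counts. *Eng*, which encodes endoglin, a co-receptor for BMP9 mutated in hereditary hemorrhagic telangiectasia, was at 183, 154 and 190.3 CPM in si-NC 1 to 3 and at 222, 164 and 196 CPM in si-Snhg18 1 to 3. The groups overlapped and 3 of 3 pairs were higher. As a log2 fold change this was 0.14 ± 0.13 SE (edgeR adjusted p = 0.555, with the block 0.164).

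The log2 fold changes of the 8 SMAD genes lay between -0.05 and 0.39, and *Smad5* and *Smad4* were higher with the block. *Smad1*, a signal carrier of the BMP branch, was at 48.1, 46.7 and 55.0 CPM in si-NC 1 to 3 and at 55.8, 50.2 and 58.8 CPM in si-Snhg18 1 to 3. It was higher in 3 of 3 pairs and did not pass. In the fit the log2 fold change was 0.14 ± 0.10 SE (edgeR adjusted p = 0.438, with the block 0.169). *Smad5*, of the same branch, was at 53.1, 54.1 and 52.5 CPM in si-NC 1 to 3 and at 62.1, 61.0 and 67.1 CPM in si-Snhg18 1 to 3. All si-Snhg18 libraries lay above all si-NC libraries. The estimated log2 fold change was 0.25 ± 0.07 SE (edgeR adjusted p = 0.0826, with the block 0.0322). *Smad9*, the third carrier of that branch, was the lowest of the SMAD genes per length, at 4.05, 5.30 and 4.23 CPM in si-NC 1 to 3 and at 3.76, 5.22 and 4.599 CPM in si-Snhg18 1 to 3. Its groups overlapped, and its log2 fold change was close to 0. The fitted log2 fold change was -0.00 ± 0.20 SE (edgeR adjusted p = 0.997, with the block 0.986). *Smad4*, the common partner of both branches, was at 92.5, 95.4 and 98.01 CPM in si-NC 1 to 3 and at 135, 109 and 130.2 CPM in si-Snhg18 1 to 3. The groups did not overlap, with the smallest difference between the libraries numbered 2. The log2 fold change was 0.39 ± 0.09 SE (edgeR adjusted p = 0.0562, with the block 0.0105).

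*Smad2* and *Smad3*, the carriers of the TGF-beta and activin branch, had log2 fold changes of 0.18 and 0.23 and did not pass in either fit (edgeR adjusted p with the block = 0.0849 and 0.194). The inhibitory SMAD genes, which the pathway switches on as its own brakes, had log2 fold changes of 0.11 and -0.05. *Smad6*, the brake of the BMP branch, was at 14.4 ± 1.15 CPM in si-NC and 15.5 ± 3.53 CPM in si-Snhg18 cells, and *Smad7*, the brake of both branches, at 45.5 ± 4.47 and 43.9 ± 3.96 CPM (SD, n = 3 each). Their adjusted p-values from edgeR with the block were 0.723 and 0.639.

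The ubiquitin ligase genes *Smurf1* and *Smurf2* encode proteins that mark SMAD proteins and receptors for degradation, and *Smurf2* rose whereas *Smurf1* was lower with the block. *Smurf2* (chr11:106820066-106920715, minus strand of GRCm38) was at 139.5, 151 and 149 CPM in si-NC 1 to 3 and at 249, 232 and 245 CPM in si-Snhg18 1 to 3. The groups were far apart compared with the spread inside each, at 1.65-fold. This gave a log2 fold change of 0.72 ± 0.07 SE (edgeR adjusted p = 0.00727, with the block 0.000753). *Smurf1* was at 132, 147 and 129.6 CPM in si-NC 1 to 3 and at 110.4, 115 and 109 CPM in si-Snhg18 1 to 3. Every si-Snhg18 library was lower than every si-NC library, and in edgeR's test of all 6 libraries it passed with the block and not without it. On the log2 scale the difference was -0.29 ± 0.07 SE (edgeR adjusted p = 0.066, with the block 0.0103). *Smurf2* made up 51.02% to 53.7% of the RPKM of the pair in si-NC and 67.1% to 69.5% in si-Snhg18 libraries. The SMAD corepressor gene *Skil*, which encodes SnoN, was at 91.8, 66.3 and 88.3 CPM in si-NC 1 to 3 and at 120.0, 73.7 and 98.4 CPM in si-Snhg18 1 to 3. It was higher in 3 of 3 pairs with overlapping groups (log2 fold change 0.25 ± 0.20 SE, edgeR adjusted p = 0.496 and, with the block, 0.0436), and its relative *Ski* did not pass (log2 fold change 0.23, edgeR adjusted p with the block = 0.0904). *Bambi*, a receptor without a kinase domain that damps signaling, had a log2 fold change of 0.35 and an edgeR adjusted p of 0.253 without and 0.0783 with the block.

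**Figure D4:**
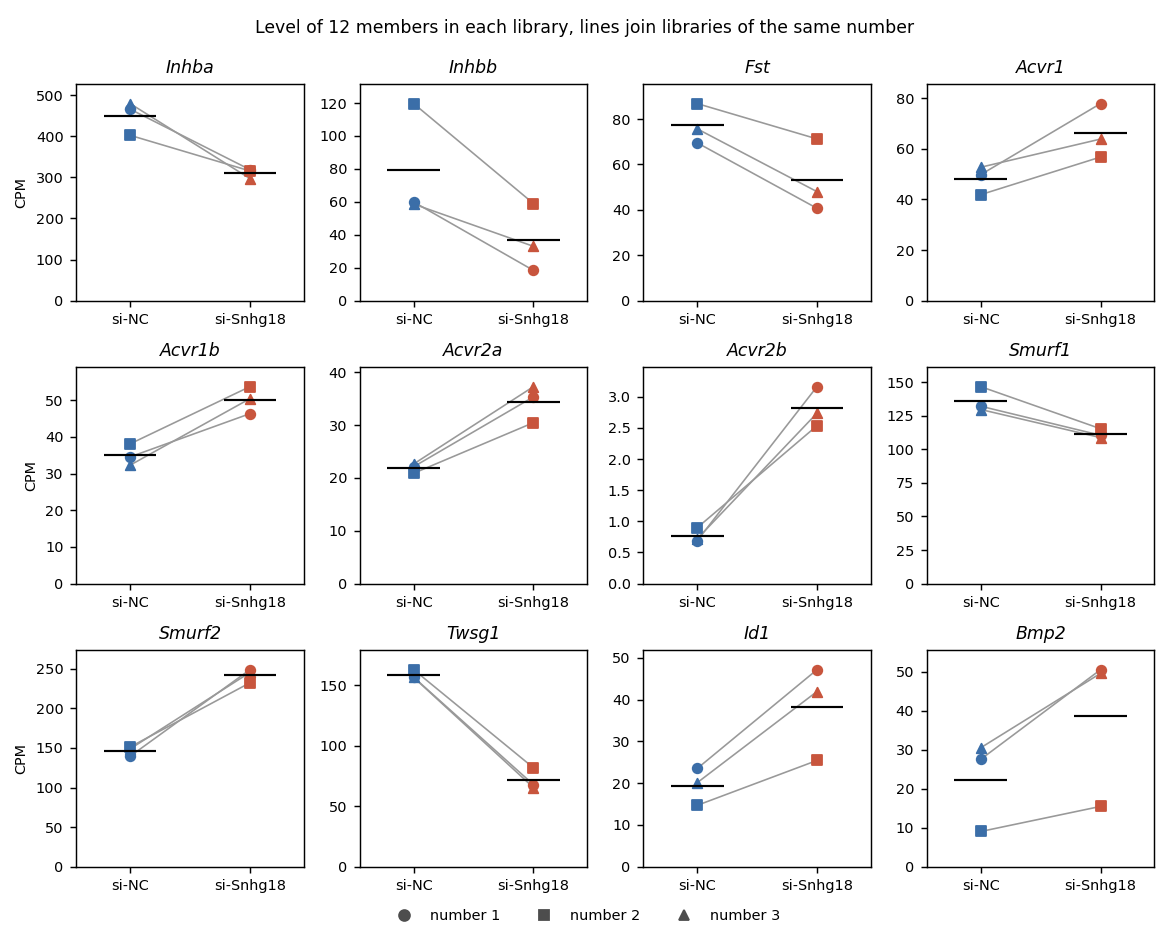
Level (y axis, CPM, each panel with its own axis from 0) of 12 members in the 3 si-NC (blue) and 3 si-Snhg18 (red) libraries, with a bar at each mean and lines joining libraries of the same number (circle 1, square 2, triangle 3). The lines of Twsg1 and Smurf2 run almost together, whereas those of Inhbb, Fst, Id1 and Bmp2 share a direction but are spread, with number 2 at one edge.

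Of the 7 tested genes for secreted antagonists and modulators, *Twsg1* fell, and *Grem1*, *Fst*, *Fstl1* and *Fstl3* passed with the block. *Twsg1* (chr17:65921972-65951226, minus strand of GRCm38), which encodes twisted gastrulation, a BMP-binding protein that acts together with chordin, was at 157, 163 and 157 CPM in si-NC 1 to 3 and at 67.9, 81.9 and 65.5 CPM in si-Snhg18 1 to 3. All si-Snhg18 libraries were at less than the lowest si-NC library, and 45.2% of the si-NC level remained. As a log2 fold change this was -1.15 ± 0.10 SE (edgeR adjusted p = 0.00727, with the block 0.000428). Its adjusted p stayed under 0.05 in 3 of the 6 fits that left out 1 library, as did that of *Smurf2*, more often than for any other member. *Grem1* was at 2810.1, 2514 and 2890.0 CPM in si-NC 1 to 3 and at 3499, 3284 and 3423 CPM in si-Snhg18 1 to 3. The ranges of the groups were apart, with si-Snhg18 higher. In the fit the log2 fold change was 0.31 ± 0.08 SE (edgeR adjusted p = 0.0605, with the block 0.00613). *Fstl1* was at 798, 1015 and 777 CPM in si-NC 1 to 3 and at 545, 958 and 639 CPM in si-Snhg18 1 to 3. It was highest in the libraries numbered 2, and 3 of 3 pairs were lower. The estimated log2 fold change was -0.27 ± 0.22 SE (edgeR adjusted p = 0.491, with the block 0.0401). *Chrd*, which encodes chordin, had 41 to 149 reads in a library and a log2 fold change of -0.49 (edgeR adjusted p with the block = 0.09), and *Bmper*, a chordin relative, lay lower in all si-Snhg18 libraries by only -0.13 on the log2 scale (edgeR adjusted p with the block = 0.159).

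*Bmp1* (chr14:70474558-70520234, minus strand of GRCm38), which despite its name encodes a secreted protease that cleaves procollagen, chordin and latent TGF-beta binding protein, rose. It was at 251, 285 and 274 CPM in si-NC 1 to 3 and at 365, 372 and 371 CPM in si-Snhg18 1 to 3. All si-Snhg18 libraries lay above all si-NC libraries, by 1.37-fold. The fitted log2 fold change was 0.45 ± 0.07 SE (edgeR adjusted p = 0.0196, with the block 0.00216).

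Of the 4 ID genes, which encode dominant-negative helix-loop-helix proteins and are direct targets of BMP signaling, *Id1* and *Id3* were higher with the block, and *Id2* and *Id4* did not pass in either fit. *Id1* was at 23.5, 14.7 and 20.1 CPM in si-NC 1 to 3 and at 47.2, 25.4 and 41.9 CPM in si-Snhg18 1 to 3. Every si-Snhg18 library was higher than every si-NC library, at 1.96-fold, and in edgeR's test of all 6 libraries it was called with the block and not without it. The log2 fold change was 0.97 ± 0.27 SE (edgeR adjusted p = 0.0843, with the block 0.000895). *Id3* was at 45.3, 55.7 and 42.0 CPM in si-NC 1 to 3 and at 55.1, 77.0 and 57.7 CPM in si-Snhg18 1 to 3. The groups overlapped through the libraries numbered 2, the highest ones, and 3 of 3 pairs were higher. This gave a log2 fold change of 0.41 ± 0.17 SE (edgeR adjusted p = 0.19, with the block 0.00666). *Id2* was at 12.4, 8.16 and 13.4 CPM in si-NC 1 to 3 and at 14.8, 9.41 and 13.0 CPM in si-Snhg18 1 to 3, with overlapping groups. On the log2 scale the difference was 0.13 ± 0.25 SE (edgeR adjusted p = 0.779, with the block 0.421). *Id4* was at 2.72, 3.35 and 2.29 CPM in si-NC 1 to 3 and at 2.02, 2.69 and 1.70 CPM in si-Snhg18 1 to 3. It lay lower in 3 of 3 pairs. As a log2 fold change this was -0.38 ± 0.27 SE (edgeR adjusted p = 0.433, with the block 0.241). *Tgfbi*, a matrix protein named for its induction by TGF-beta, had 13 to 132 reads in a library, was highest in both libraries numbered 2 and did not pass (edgeR adjusted p with the block = 0.0655).

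Beyond the members, 135 other genes of the pathway and its targets were read from the same fit, 107 of which were tested. Without the block 7 rose (6.54%) and 6 fell (5.61%), and with it 19 were higher (17.8%) and 25 lower (23.4%), with the shares of all tested genes as given above. Their median log2 fold change was -0.03. The genes that store latent TGF-beta in the matrix or activate it stood on the lower side, since 3 of 18 (16.7%) fell without the block. With it, 10 (55.6%) were lower and 2 (11.1%), *Furin* and *Emilin1*, higher. *Ltbp2*, a latent TGF-beta binding protein of elastic fibres, went from 393 ± 13.6 to 258 ± 3.79 CPM (SD, n = 3 each, log2 fold change -0.61, edgeR adjusted p = 0.00761). *Itgb1* and *Itgav*, integrin subunits that bind latent TGF-beta among many other ligands, had log2 fold changes of -0.42 and -0.38 (edgeR adjusted p = 0.0216 and 0.0421).

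*Nbl1*, a secreted BMP antagonist of the gremlin family also called DAN, rose from 139 ± 5.20 to 217 ± 6.54 CPM (SD, n = 3 each, log2 fold change 0.65, edgeR adjusted p = 0.00761). Inside the cell, *Nedd4l*, a ubiquitin ligase related to the SMURF proteins, rose by 0.60 on the log2 scale (edgeR adjusted p = 0.00889), as did *Zeb2*, a SMAD-interacting repressor, by 0.50 (edgeR adjusted p = 0.0282) and *Xiap*, an adaptor of the TAK1 branch better known as an inhibitor of caspases, by 0.40 (edgeR adjusted p = 0.0413). Of 30 listed TGF-beta targets, which include *Ltbp2*, 3 rose (10%) and 4 fell (13.3%) without the block. Of all tested genes, 3.65% rose and 3.71% fell. With the block 5 targets were higher (16.7%) and 12 lower (40%), where 13.6% of all tested genes were higher and 13.6% lower. *Acta2*, *Tagln*, *Cnn1* and *Col1a1* stand both on this list and on the marker lists above, whose sums ranged lower in si-Snhg18 cells. *Cdkn2b*, the cell cycle inhibitor p15, rose from 24.9 ± 0.711 to 52.2 ± 13.2 CPM (SD, n = 3 each, log2 fold change 1.07, edgeR adjusted p = 0.0264). The other targets that rose without the block were *Pmepa1* and *Nox4*, by 0.28 and 0.45 on the log2 scale (edgeR adjusted p = 0.045 and 0.0473). *Ccn1*, a matrix-associated signaling protein, and *Hmga2*, a chromatin protein, fell by 0.75 and 0.58 on the log2 scale (edgeR adjusted p = 0.0304 and 0.0273). Of 16 listed BMP targets, 9 were tested, and only *Gata2* passed with the block (11.1%, higher). Of 12 other genes of inherited pulmonary hypertension, 9 were tested and 2 fell (22.2%, where 3.71% of all tested genes fell). *Atp13a3*, a polyamine transporter, had a log2 fold change of -0.66 (edgeR adjusted p = 0.0133) and *Ggcx*, the gamma-glutamyl carboxylase, one of -0.53 (edgeR adjusted p = 0.0247). With the block *Aqp1* and *Klf2* were lower as well, which made 4 of the 9 (44.4%, where 13.6% of all tested genes were lower).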

How the data were processed

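RNA from 3 si-NC and 3 si-Snhg18 libraries of mPASMCs was sequenced after library preparation with the TruSeq Stranded mRNA kit. The authors deposited whole-number counts of reads per gene, not normalized, with each gene's exon length and position on GRCm38. The submitters' processing notes name HISAT2 and mm10. The counting program, its strand setting and its treatment of shared reads are not given in the sources used here, so that reads of genes overlapping on opposite strands may not have been told apart. Every column of counts belonged to these libraries, and groups and numbers came from the sample labels.

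The groups were compared by the quasi-likelihood test of edgeR 4.0.16 (R 4.3.3) after TMM scaling, on the 14531 genes that filterByExpr kept at a minimum count of 10, and p-values were adjusted by Benjamini-Hochberg over these genes, with a threshold of 0.05. CPM and RPKM were computed from the counts with TMM-scaled totals. With 3 libraries against 3, an exact permutation test of 1 value cannot go below p = 0.1, and floors of 3 reads cover counting error only. The repeat numbers in the labels were taken as pairs, since libraries of the same number deviated together from their group means over all tested genes (r = 0.410, 0.742 and 0.359 for numbers 1, 2 and 3). Crossing numbers 1 and 3 gave r = 0.186 and 0.497, so the numbers mainly set number 2 apart, and no source says that they share a culture. The main fit held no block. The script was tested on simulated data.

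The members and all gene lists were chosen with earlier results of these data known. All members are accounted for, with every library's value for those under an adjusted p of 0.05 without or with the block, the ID genes and the inherited disease genes *Bmpr2*, *Acvrl1*, *Eng*, *Smad1*, *Smad4* and *Smad9*. Of the other lists, at most 12 genes with the smallest p were named. *Furin*, *Emilin1*, *Pmepa1*, *Nox4*, *Gata2*, *Aqp1*, *Klf2*, *Orc4* and *Txndc5* fall outside this rule and were named after their values were seen. Alternatives were RLE factors, library totals, no filter or a minimum count of 50, DESeq2 1.42.0 and limma-voom (limma 3.58.1), each also with the block, other thresholds and leaving out each library. Promoters were matched by symbol to a RefSeq table. The siRNA sequence is not shown here.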

Additional observations from a re-analysis of the deposited data

How the results depend on the processing

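Without the replicate block, RLE factors, limma-voom, library totals, no filter and a minimum count of 50 left 5 to 7 members higher and 2 or 3 lower, and the 8 calls were kept except that of *Tgfbr3*, lost with library totals and without a filter. DESeq2 gave 9 members higher and 5 lower, and 11 other pathway genes higher and 13 lower. Over all tested genes, 2115 passed with DESeq2 and 1069 in edgeR's test, both without the block. With RLE factors it was 1058, with limma-voom 1036, with library totals 1105, without a filter 877 and with a minimum count of 50 it was 1200. In the paired fit with the replicate block the members counted 15 higher and 12 lower and the other pathway genes 19 and 25. DESeq2 with the block gave 13 and 8 members and 17 and 24 others, limma-voom with the block 15 and 13 members and 21 and 25 others, and leaving out both libraries numbered 2, chosen after seeing the data, 15 and 10 members and 20 and 26 others. Over all tested genes, these last 4 fits called 3954 (edgeR with the block), 3156, 3981 and 4020. At an adjusted p under 0.1 there were 9 and 5 members, which were not set against the share of all tested genes. With a 1.5-fold threshold there were 3 and 1 members and 3 and 2 others. Without a filter 4 others were higher, where more genes were tested. Leaving out 1 library at a time gave 0 to 13 members higher and 0 to 7 lower, and 0 to 19 others higher and 0 to 22 lower. All of these counts were 0 without si-NC 1, si-NC 3 or si-Snhg18 3 and highest without si-Snhg18 2, as was the count over all tested genes, and the cause was not tested. *Snhg18* stayed between -1.15 and -1.06 on the log2 scale (-1.14 to -1.06 with 1 library left out at a time), with an adjusted p above 0.05 in edgeR's test without si-NC 1, si-NC 3 or si-Snhg18 3.

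The members called without or with the block kept their direction in every fit that gave a value. The log2 fold change of *Smad9* turned to 0.0021 with RLE factors, 0.0097 with library totals, 0.0016 with DESeq2 and 0.0012 without the libraries numbered 2, where *Bmpr1a* was at 0.0316 and *Smad6* at -0.0014. With 1 library left out at a time, signs also turned for *Bmp6* (-0.40 to 0.21), *Tgfb3* (-0.28 to 0.66), *Bmpr1a* (-0.14 to 0.10), *Smad3* (-0.071 to 0.43), *Smad9* (-0.125 to 0.125), *Smad6* (-0.037 to 0.28), *Smad7* (-0.11 to 0.027), *Id2* (-0.058 to 0.30) and *Tgfbi* (-1.68 to 0.16), none of which passed an adjusted p of 0.05 in edgeR's test with or without the block, and the cause was not tested. The depth leaves *Bmp7*, *Gdf5* and *Nog* untested, and *Bmp4*, *Bmp5*, *Bmp6*, *Gdf15*, *Tgfb2*, *Acvr2b* and *Id4* rest on fewer than 100 reads in each library.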
